A study of Mus musculus with 14 samples.

Results

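Notch1 was read by 39 of the 194293 probe sets of an exon array, a probe set being a group of probes that mostly reads a single exon. They are all the rows that the platform annotation gives to Notch1 alone, and each was followed in 14 mouse thymic lymphomas, 7 from Vav-SB mice and 7 from CD4-SB mice, which both model the T-cell leukaemia T-ALL. In these mice the Sleeping Beauty (SB) transposon moves through the genome and mutates genes where it lands, and the series asks how the cell of origin shapes the mutations that are selected. The strain labels name the models and give no further allele, treatment, age or sex of the animals. As background, the Vav promoter is active in blood cells from the stem cell onward and the Cd4 promoter from the thymocyte stage at which CD4 appears together with CD8. Notch1 was chosen by its measured level, which was known to differ between the models in these arrays. Every difference between Vav-SB and CD4-SB tumours of this gene is therefore given as a description with no test. A count of its probe sets past a threshold is a description too. Values are log2 levels, and differences are Vav-SB minus CD4-SB.

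Notch1 is a receptor on the cell surface. When a ligand of the Delta-like or Jagged family on a neighbouring cell binds it, a metalloprotease and then the gamma-secretase complex cut the receptor, and its intracellular part moves to the nucleus, where it joins the DNA-binding protein Rbpj and a Mastermind coactivator to switch on target genes. In the thymus this signal commits progenitors to the T lineage and is turned down as thymocytes mature, and activating mutations or truncations of the receptor are among the best-known drivers of T-ALL in mice and humans. In mouse T-ALL some of these events leave transcripts that lack the part coding for the ligand-binding region. No position was used for any probe set, so their order along the transcript is unknown and no exon can be named. Probe sets are called by their numbers on the array.

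The bases before the annotated start of Notch1 are shown because 38 of the 39 probe sets differed at least 2-fold between the models in the same direction, although the arrays do not show which start was used. The sequence comes from RefSeq on build GRCm38.p6, which is not the mm9 build that the labels name for the array, at chr2:26503823-26504072 on the minus strand, and covers the 250 bases before the start. Capitals mark the GC box, GGGCGG on either strand, the short element that Sp-family factors bind in many promoters.
Notch1 promoter: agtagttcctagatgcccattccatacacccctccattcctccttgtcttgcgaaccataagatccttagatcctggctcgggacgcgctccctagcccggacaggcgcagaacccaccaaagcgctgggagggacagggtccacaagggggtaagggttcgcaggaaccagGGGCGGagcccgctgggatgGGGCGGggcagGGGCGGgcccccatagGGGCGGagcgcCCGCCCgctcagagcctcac
The window held 5 GC boxes, none of which overlapped another, 4 on the strand of the gene and the last, nearest the start, on the other strand. At least 1 was found in 32.7% of 32851 windows of the same length before annotated starts, and at least 5 in 1.93%. The bases G and C made up 66% of the window, against a median of 52.4% over all windows. The Rbpj core TGGGAA, the Runx core TGTGGT, the E-box CANNTG, the CCAAT box and the TATA box TATAAA, searched on both strands, had no match in these letters. They were found in 21.6%, 14.0%, 66.2%, 33.8% and 12.4% of all windows.

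The mean over the 39 probe sets was 10.67 ± 0.42 in Vav-SB tumours and 7.50 ± 0.23 in CD4-SB tumours (SD, n = 7 each). Vav-SB tumours lay between 10.20 and 11.22 and CD4-SB tumours between 7.30 and 7.98. The models did not overlap, as in 2.51% of all genes with Vav-SB above, and the lowest Vav-SB tumour was 4.67-fold above the highest CD4-SB tumour. The difference of 3.18 ± 0.18 (SE) is 9.03-fold, and 10 of 15803 genes had a larger one toward Vav-SB. In bulk tumours fewer cells with the transcript and less transcript per cell cannot be told apart.

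All 39 probe sets were on average higher in Vav-SB tumours, 38 of them at least 2-fold, where 2.67% of all probe sets were. In 38 every Vav-SB tumour lay above every CD4-SB tumour, as in 1.75% of all probe sets. In limma's fit of all probe sets, with Benjamini-Hochberg adjustment at 0.05, 38 were called higher in Vav-SB, where 4.57% of all were. For Notch1 these calls are a description and no test, since its difference was known beforehand. Its probe sets also share the RNA and the arrays, so the 38 calls are not independent. The same contrast chose the gene, so nothing is read from these counts.

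**Figure D1:**
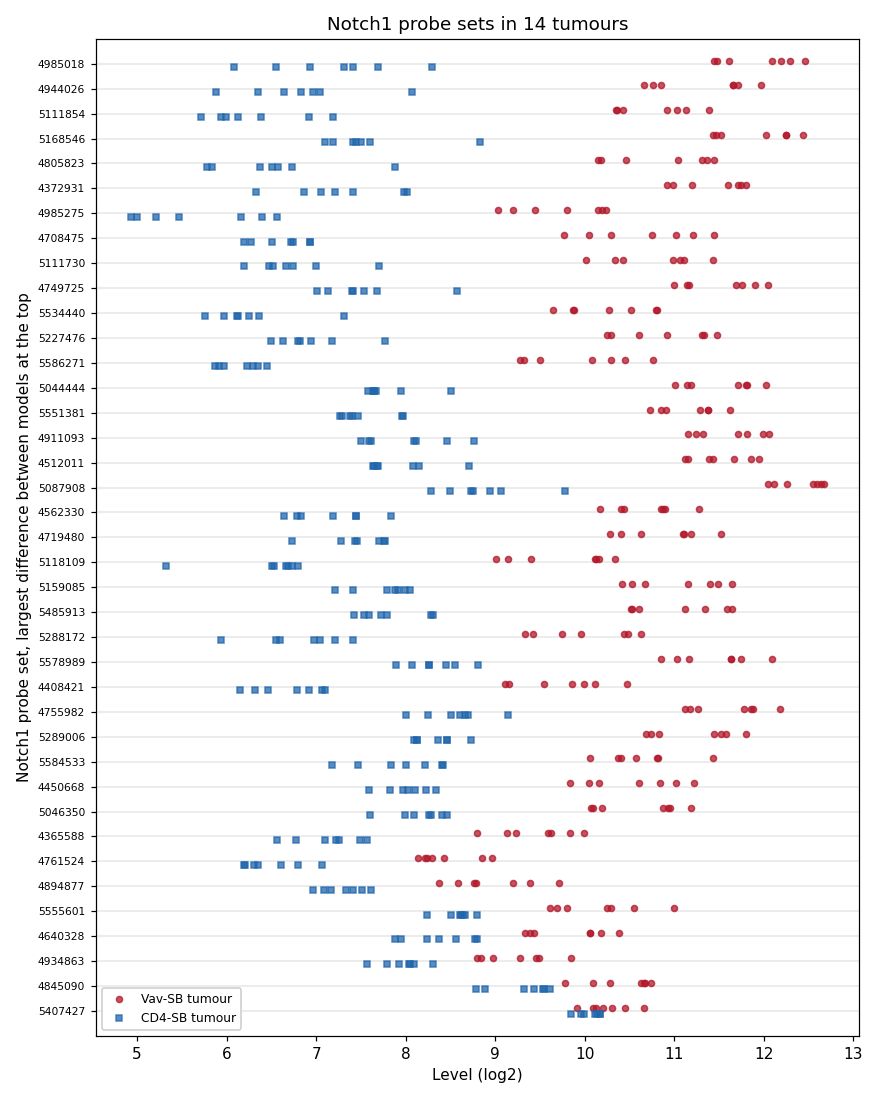
Log2 level (x axis) of the 39 Notch1 probe sets (y axis, ordered by the difference between models), with a circle for each of 7 Vav-SB tumours and a square for each of 7 CD4-SB tumours. The models are apart in 38 probe sets and overlap in 5407427, at the bottom.

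The size of the difference was unequal over the gene. It ran from 0.20 to 4.76, with a median of 3.45 and an SD over probe sets of 1.07, while the standard error of a single probe set's difference lay between 0.11 and 0.34. The difference was at least 16-fold in 9 probe sets, from 8-fold to 16-fold in 18, from 4-fold to 8-fold in 5 and under 4-fold in 7. The median difference of all 194293 probe sets was 0.02.

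The largest difference was in probe set 4985018, with Vav-SB tumours from 11.44 through a median of 12.09 to 12.46 and CD4-SB tumours from 6.08 through 7.31 to 8.30. That is 27.1-fold, and the lowest Vav-SB tumour was 3.14 above the highest CD4-SB tumour. Probe set 4944026 followed at 4.50 ± 0.33 (SE), 5111854 at 4.48 ± 0.26, 5168546 at 4.33 ± 0.27 and 4805823 at 4.33 ± 0.34. In these 5 probe sets the Vav-SB tumours spread by SDs of 0.42 to 0.57 and the CD4-SB tumours by SDs of 0.54 to 0.74.

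At the other end stood probe set 5407427, with Vav-SB tumours from 9.91 through a median of 10.20 to 10.66 and CD4-SB tumours from 9.85 through 10.11 to 10.17. Its models overlapped, and its difference was 0.20 ± 0.11 (SE), or 1.14-fold. The next smallest was 4845090, with Vav-SB tumours from 9.78 through 10.63 to 10.74 and CD4-SB tumours from 8.79 through 9.44 to 9.61. Here the models were apart by 0.17, and the difference was 1.11 ± 0.19. Probe sets 4934863, 4640328 and 5555601 differed by 1.27 ± 0.17, 1.47 ± 0.21 and 1.59 ± 0.20. Their levels in CD4-SB tumours, at means of 7.97, 8.37 and 8.58, had SDs of 0.24, 0.37 and 0.18. Which exons or transcripts these probe sets read, and their part in the unequal difference, was not tested.

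Among the 2306 genes with at least 20 probe sets, the median SD of the difference over a gene's probe sets was 0.23, and Notch1 ranked at place 7. Of those, 104 genes had a mean difference of at least 2-fold in either direction. Their median SD was 0.56, and Notch1 stood at place 6. Neither place was adjusted for the size of the difference, which averaged 3.18 for Notch1. Ccdc18, with a mean difference of 3.14, had an SD of 0.93, against 1.07 for Notch1. Among the other receptors the SD was 0.90 for Notch3, 0.31 for Notch2 and 0.24 for Notch4, over 38, 36 and 42 probe sets with mean differences of 1.29, -0.55 and -0.08.

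Within the Vav-SB model the tumours differed from one another in almost every Notch1 probe set in the same way. By the mean over probe sets, replicate 3 was at 11.22, replicate 6 at 11.01, replicate 5 at 10.93 and replicate 4 at 10.84, and replicates 2, 7 and 1 at 10.27, 10.25 and 10.20. A gap of 0.57 lay between the 4 higher and the 3 lower tumours, and the whole range was 1.02. Replicates 3 and 6 were above the mean of their model in 39 of 39 probe sets and replicates 4 and 5 in 36 and 35. Replicates 1, 2 and 7 were below it in 39 of 39. Replicate 3 was the highest Vav-SB tumour in 31 probe sets, and in 36 all of replicates 3, 4, 5 and 6 lay above all of 1, 2 and 7. Once the tumour's mean shift was allowed for, the deviations of a Vav-SB tumour varied over probe sets with an SD of 0.14 to 0.18.

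**Figure D2:**
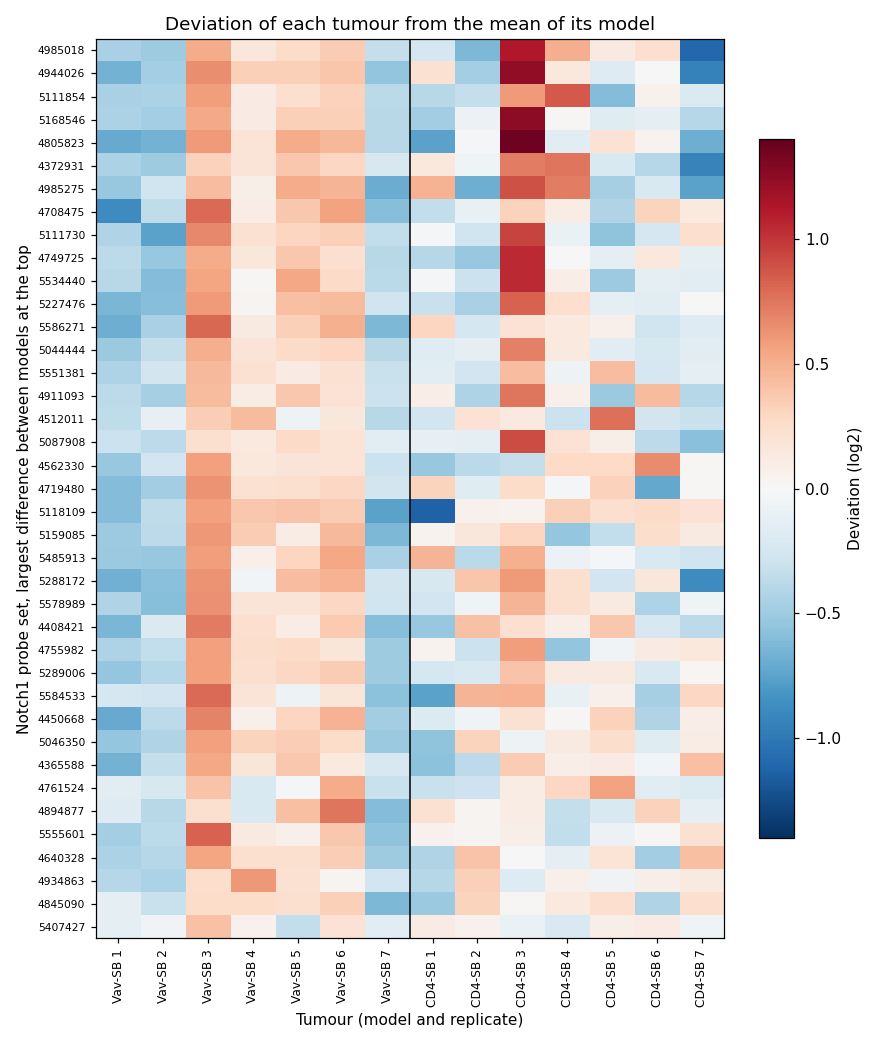
Deviation of each tumour (columns, Vav-SB left of the line, CD4-SB right of it) from the mean of its own model, in log2 units by colour, for the 39 Notch1 probe sets (rows, ordered by the difference between models). The Vav-SB columns have mostly a single colour from top to bottom, and the CD4-SB columns are mixed, with replicate 3 raised most in the upper rows.

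In CD4-SB tumours the deviations were less uniform, and the part of their lower Notch1 level in this was not tested. Replicate 3 was above its model's mean in 35 of 39 probe sets, and the other tumours in 12 to 25. The SD of the deviations over probe sets was 0.29 to 0.43, wider than in any Vav-SB tumour. The level of replicate 3, at 7.98, was followed by 7.58 in replicate 4, and the other 5 tumours lay between 7.30 and 7.50. Replicate 3 was the highest CD4-SB tumour in 21 probe sets, among them 7 of the 9 with an at least 16-fold difference between models and 0 of the 7 with an under 4-fold difference. In probe set 4805823 it reached 7.89, which is 1.36 above the mean of its model. Across the 39 probe sets its deviation went with the size of the model difference at r = 0.73, a description over probe sets of a single transcript and a single array. In the other CD4-SB tumours that r lay between -0.55 and 0.39. Replicates 1 and 2, which share the first number of their titles, stood at 7.30 and 7.39 in the mean level. Replicates 5, 6 and 7, which share another, stood at 7.50, 7.41 and 7.34, so these sets of tumours interleaved with each other. The range was 0.09 and 0.16 within these sets and 0.68 over all CD4-SB tumours, with replicate 3 at its top. Replicates 3 and 4, each with a first title number of its own, were the highest. The part of the title number in the level was not tested.

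The mean correlation between pairs of Notch1 probe sets was 0.88 over the 7 Vav-SB tumours and 0.22 over the 7 CD4-SB tumours. The medians over the 2306 genes with at least 20 probe sets were 0.22 in Vav-SB and 0.31 in CD4-SB, and 24 of these genes were above Notch1 in Vav-SB. Without CD4-SB replicate 3 the CD4-SB value was 0.04, while leaving out any single Vav-SB tumour gave 0.85 to 0.91. Notch3 had a mean correlation of 0.64 in Vav-SB and 0.06 in CD4-SB, Notch2 0.07 and 0.37, and Notch4 0.08 and 0.01. Probe sets of a gene share the RNA and the array, so these correlations are descriptions. The Notch1 level was lower in CD4-SB tumours than in Vav-SB tumours (means of 7.50 and 10.67) and varied less between them (SDs of 0.23 and 0.42). The part of this in the lower CD4-SB correlation was not tested.

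**Figure D3:**
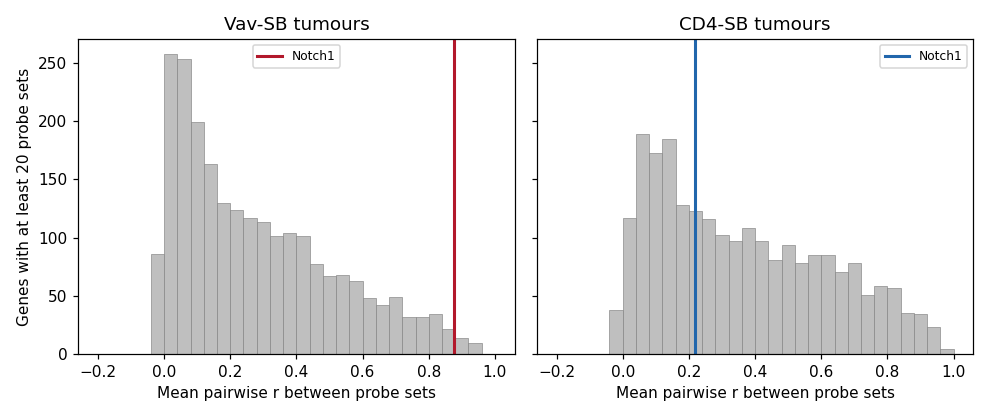
Histogram of the mean pairwise correlation between a gene's probe sets (x axis) over 7 Vav-SB tumours (left) and 7 CD4-SB tumours (right), for 2306 genes with at least 20 probe sets (y axis, number of genes). The line marks Notch1, 0.88 over Vav-SB tumours and 0.22 over CD4-SB tumours.

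Variation among Vav-SB tumours was not what chose the gene, so it was set against 8 pathway or T-lineage genes. It was also set against the mean level of 31 markers of other cell types, over 7 tumours and with p adjusted over these 9 relations. The partners were chosen with earlier results of these data known, which the adjustment does not cover. Among these 9 partners Dtx1, the Deltex ubiquitin ligase gene that Notch signals switch on, followed Notch1 most closely. Genes outside them came closer, with Pearson's r within Vav-SB of 0.96 for the target Heyl and 0.99 for Slc12a7. Dtx1 was at 9.61, 9.58, 9.33 and 9.16 in replicates 3, 6, 5 and 4. It was at 8.91, 8.61 and 8.03 in replicates 2, 7 and 1, the same order as Notch1. Spearman's rho was 1 (exact permutation p = 0.000397, two-sided, the smallest that 7 tumours allow, adjusted p = 0.00357). Pearson's r was 0.90 (exact permutation p = 0.00139, adjusted p = 0.0125) and 0.93 without replicates 1 and 7, the 2 tumours farthest from the median of Notch1. Without replicate 3, 4, 5 or 6 this r no longer passed after adjustment, with values from 0.88 to 0.96 over all tumours left out singly and adjusted exact permutation p up to 0.104. With replicates 1 and 7 both out, replicate 2 alone stood below the gap in Notch1. The r of 0.93 thus mostly sets that tumour against replicates 3, 4, 5 and 6.

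The partners Ptcra, Notch3, Nrarp and Il2ra also had r above 0.8 but did not pass after adjustment. Ptcra, which codes for the alpha chain of the pre-T-cell receptor, had r = 0.87 and rho = 0.82 (exact permutation p = 0.0296 and 0.0341, adjusted p = 0.0532 and 0.102). For the receptor Notch3 r was 0.86 and rho 0.86 (exact permutation p = 0.0115 and 0.0238, adjusted p = 0.0518 and 0.102). Nrarp, a feedback inhibitor, had r = 0.84 and rho = 0.75 (exact permutation p = 0.027 and 0.0663, adjusted p = 0.0532 and 0.149). For Il2ra, the interleukin-2 receptor alpha chain, r was 0.82 and rho 0.71 (exact permutation p = 0.0204 and 0.0881, adjusted p = 0.0532 and 0.159). Without replicates 1 and 7 their r was 0.72, 0.90, 0.82 and 0.84. Il2ra spanned the widest range of these, at 11.17, 12.01, 12.15 and 11.29 in replicates 3, 6, 5 and 4 and at 8.67, 10.08 and 6.62 in replicates 2, 7 and 1.

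Hes1, a repressor that is a direct Notch target, had r = 0.37 and rho = 0.54 (exact permutation p = 0.392 and 0.236, adjusted p = 0.442 and 0.354), and without replicates 1 and 7 r was -0.61. A single tumour moved this r as well: without replicate 2, the highest Vav-SB tumour in Hes1 at 8.35, r was 0.91 (adjusted exact permutation p = 0.07), and the lowest r with a tumour left out was 0.15. Myc was at r = -0.32 and rho = -0.43 (exact permutation p = 0.491 and 0.354, adjusted p = 0.491 and 0.455). The T-lineage factor Tcf7 was at r = -0.46 and rho = -0.29 (exact permutation p = 0.32 and 0.556, adjusted p = 0.411 and 0.556). For Myc and Tcf7 r without replicates 1 and 7 was -0.26 and -0.96. Myc passed without replicate 6, at r = -0.98 (adjusted exact permutation p = 0.0375), while without replicate 3 its r was 0.05. Without replicate 1, Tcf7 passed at r = -0.77 and Notch3 at r = 0.87 (adjusted exact permutation p = 0.05 for both). The markers of other cell types had r = 0.48 and rho = 0.36 (exact permutation p = 0.27 and 0.444, adjusted p = 0.404 and 0.5), and 0.70 without the same tumours. Their mean level was 8.35 and 7.98 in replicates 3 and 6 and 7.60 and 7.65 in replicates 5 and 4, so the tumours high in Notch1 held both the highest and some of the lowest marker levels. Because of the gap in Notch1 levels each r mostly sets 4 tumours against 3, and neither side holds enough tumours to test a relation within it. Without replicates 1 and 7, each r mostly sets replicate 2, at 10.27 in Notch1, against replicates 3, 4, 5 and 6, at 10.84 to 11.22. Replicate 2 was also the highest Vav-SB tumour in Hes1 and Tcf7. These values therefore cannot show whether a relation holds apart from the extreme tumours. CD4-SB tumours share title numbers and were not tested.

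**Figure D4:**
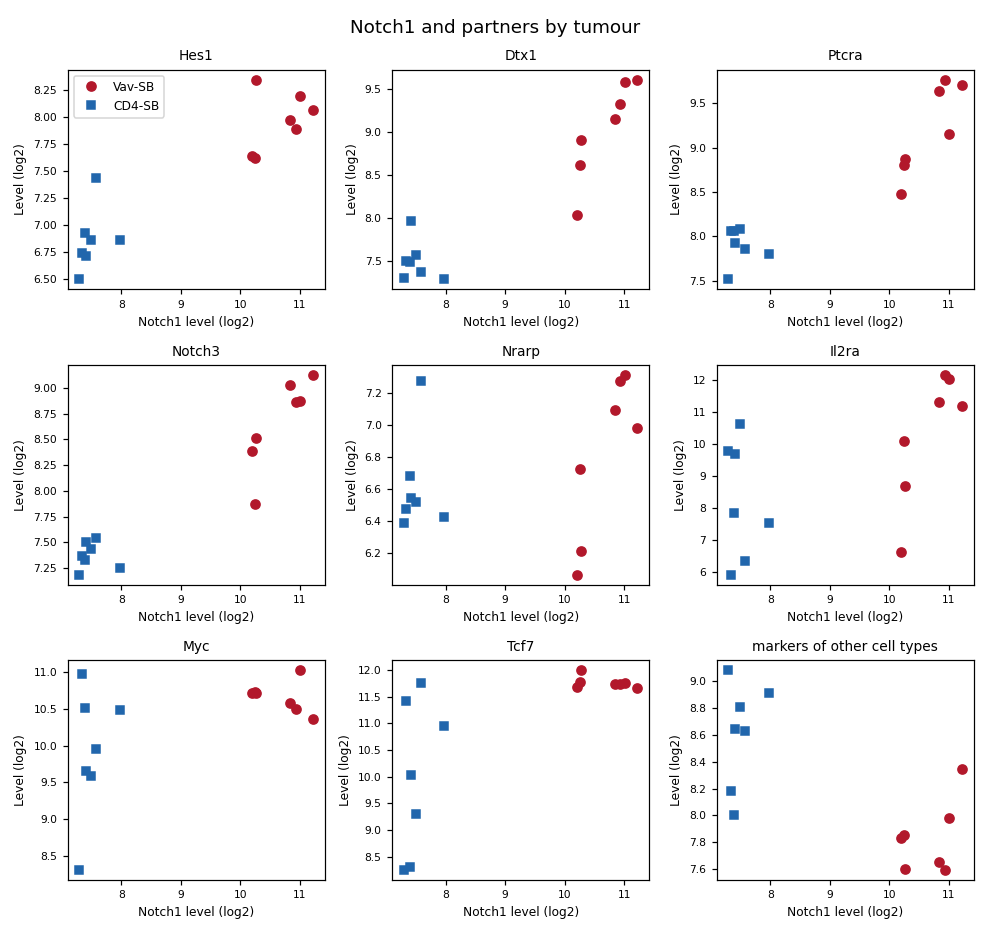
Log2 level of each partner (y axes) against the Notch1 level (x axes, mean of 39 probe sets, log2) in 7 Vav-SB tumours (circles) and 7 CD4-SB tumours (squares). Among Vav-SB tumours Dtx1 has the same order as Notch1.

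Genes were ranked by Pearson's r with Notch1 over the 14 tumours after each model's mean was subtracted, which takes out the difference between models. Among 14164 genes with at least 3 probe sets, the most alike were Cxxc5 (a zinc finger protein) at 0.86, Slc12a7 (a potassium-chloride cotransporter) at 0.84, Ptprf (a receptor tyrosine phosphatase) at 0.84, Il10 (an interleukin) at 0.83 and Atg2a (an autophagy protein) at 0.83. The most opposite were Cul2 (a scaffold of ubiquitin ligases) at -0.83, Katnbl1 at -0.82, Esm1 (a secreted proteoglycan) at -0.81, Tmem98 at -0.81 and Wdr5b at -0.80. Il10 had r = 0.94 within Vav-SB, where it ran from 5.25 to 8.49, and 0.29 within CD4-SB, where it ran from 5.24 to 6.13. With a median over probe sets 2 of these 10 genes kept their place among the 10 named, and with probe sets above the median level alone 3 did. Of the 45 Notch pathway genes in this ranking, 32 (71.1%) had r above 0 and 13 below 0, with a median of 0.18, while 46.0% of all genes had r above 0, with a median of -0.03. The coactivator Maml3 was at place 7 with r = 0.83, the target Heyl at 44 (0.75), Notch3 at 69 (0.72), Ptcra at 97 (0.69), Psen2 at 108 (0.69) and Dtx1 at 136 (0.67). Others stood far from the top, with the targets Hes1 at place 1922 (0.35), Myc at 5220 (0.08) and Hey1 at 9895 (-0.20). The lowest were Snw1 at 12936 (-0.45) and Numbl at 13445 (-0.51).

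The Notch pathway around the receptor was followed through a list of 56 genes, of which 46 were measured. With limma's test on all genes, 9 were higher and 7 lower in Vav-SB tumours, or 19.6% and 15.2% of the list, where 7.28% and 7.18% of all genes were. The median difference of the list was -0.00, against 0.00 over all genes. By role, 5 of 13 targets were higher and 1 lower, and of 5 ligands, 5 glycosyltransferases and 5 proteases 1 each was lower and 0 higher. The adjusted p-values of these genes come from that limma fit.

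Of the ligands, Jag1 fell (6.33 ± 0.30 in Vav-SB tumours against 6.91 ± 0.31 in CD4-SB tumours, adjusted p = 0.0228), and Dll1, Dll3, Dll4 and Jag2 did not pass, with differences of -0.06, 0.14, 0.06 and -0.15. Among the receptors Notch3 rose (8.67 ± 0.44 in Vav-SB tumours against 7.37 ± 0.13 in CD4-SB tumours, adjusted p = 0.000181) and Notch2 fell (7.64 ± 0.09 in Vav-SB tumours against 8.19 ± 0.22 in CD4-SB tumours, adjusted p = 0.00199). Neither overlapped between the models, though Notch2 was only just apart, with its highest Vav-SB tumour at 7.78 and its lowest CD4-SB tumour at 7.83. Notch4 stood at 7.29 ± 0.09 in Vav-SB tumours and 7.38 ± 0.06 in CD4-SB tumours (adjusted p = 0.456). Lfng, a Fringe enzyme that adds sugars to the receptor and changes which ligands it answers, fell by 0.55 (adjusted p = 0.00528). Its models were barely apart, with the highest Vav-SB tumour at 7.03 and the lowest CD4-SB tumour at 7.04. The share of all genes with every CD4-SB tumour above every Vav-SB tumour was not computed. The other sugar-adding enzymes Pofut1, Poglut1, Mfng and Rfng differed by -0.02, -0.19, -0.24 and 0.09 and did not pass.

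Of the proteases that cut the receptor, Psen2, a catalytic subunit of gamma-secretase, fell by 0.61 (7.42 ± 0.21 in Vav-SB tumours against 8.04 ± 0.18 in CD4-SB tumours, adjusted p = 0.00193). Its models were only just apart, with the highest Vav-SB tumour at 7.81 and the lowest CD4-SB tumour at 7.83. Adam10, Ncstn, Aph1b and Aph1c did not pass, with differences of -0.34, -0.17, -0.17 and -0.28. In the nuclear complex Kat2b, an acetyltransferase, rose by 0.87 (adjusted p = 0.00974) and Maml3 by 0.59 (adjusted p = 0.0257), and both overlapped between the models. Maml1, Ep300 and Snw1 differed by -0.08, 0.17 and -0.10 and did not pass. Rbpj, measured by 1 probe set, was at 6.27 ± 0.49 in Vav-SB tumours against 6.10 ± 0.28 in CD4-SB tumours (adjusted p = 0.632). The corepressors Ncor1 and Spen differed by -0.07 and 0.03 and did not pass.

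Fbxw7, part of the ubiquitin ligase that marks the intracellular receptor for destruction, rose by 0.49 (8.67 ± 0.19 in Vav-SB tumours against 8.18 ± 0.18 in CD4-SB tumours, adjusted p = 0.00592). Its models were only just apart, with the lowest Vav-SB tumour at 8.47 and the highest CD4-SB tumour at 8.44. Dtx4 and the ubiquitin ligase Nedd4 fell by 0.42 and 0.41 (adjusted p = 0.0294 and 0.0152). Numb, Numbl, Itch and Dtx2, also of receptor turnover, differed by 0.05, -0.11, -0.03 and 0.02 and did not pass.

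Among the targets, Dtx1 was at 9.03 ± 0.57 in Vav-SB tumours against 7.49 ± 0.23 in CD4-SB tumours (adjusted p = 0.000362). Ptcra was at 9.20 ± 0.51 in Vav-SB tumours against 7.90 ± 0.20 in CD4-SB tumours (adjusted p = 0.000604), and Hes1 at 7.96 ± 0.27 in Vav-SB tumours against 6.86 ± 0.29 in CD4-SB tumours (adjusted p = 0.000231). These 3 did not overlap between the models, as in 2.51% of all genes with Vav-SB above. Dtx1 was the least apart, with its lowest Vav-SB tumour at 8.03 and its highest CD4-SB tumour at 7.96. Heyl rose by 1.02 (8.21 ± 0.74 in Vav-SB tumours against 7.18 ± 0.21 in CD4-SB tumours, adjusted p = 0.0195), and its 3 lowest Vav-SB tumours, replicates 1, 7 and 2 at 7.40, 7.52 and 7.60, are those lowest in Notch1. Tcf7 rose by 1.76 (adjusted p = 0.0275), with all Vav-SB tumours close together (SD 0.11) and CD4-SB tumours wide apart (SD 1.44). Hey1, a relative of Hes1, fell by 0.71 (adjusted p = 0.0205). Hes5, Hey2, Nrarp, Il2ra, Myc, Igf1r and Ccnd1 did not pass, with differences of 0.22, 0.01, 0.19, 2.05, 0.73, -0.88 and 0.17.

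**Figure D5:**
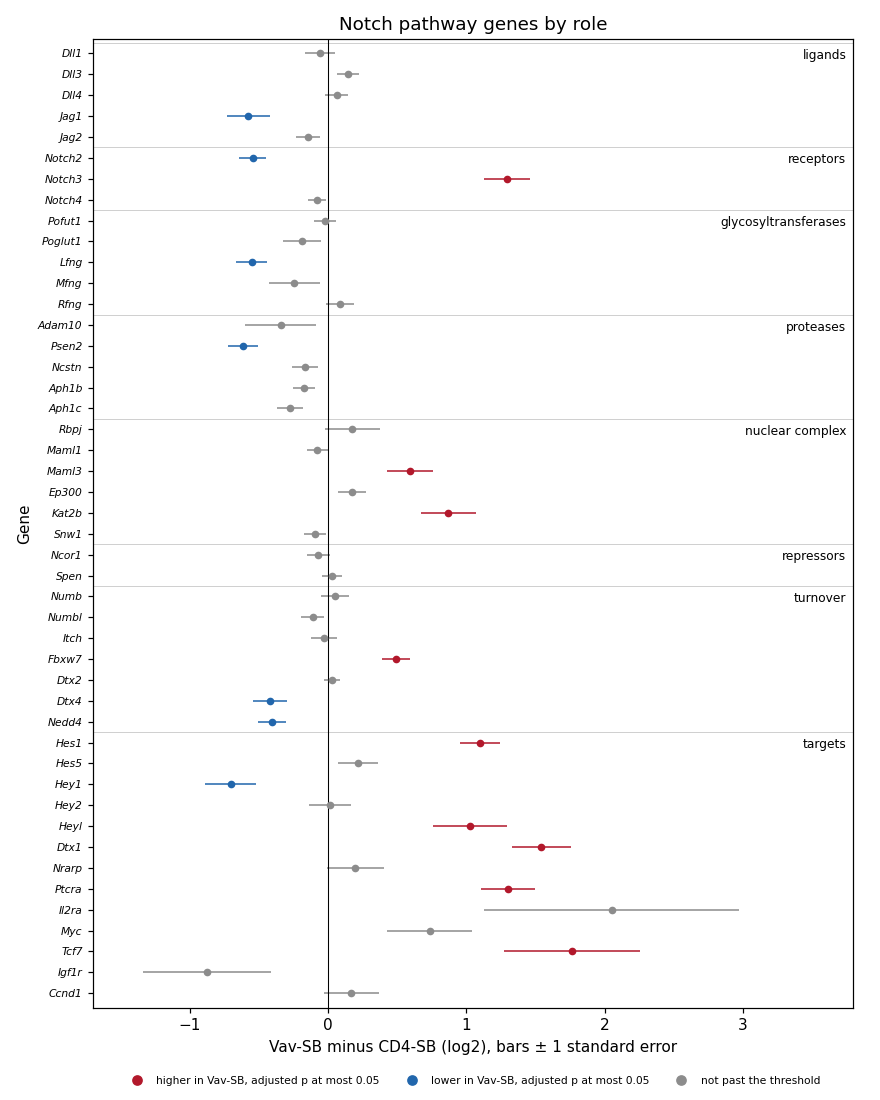
Difference Vav-SB minus CD4-SB (x axis, log2, bars ± 1 standard error of the limma fit, 7 tumours per model) of 46 Notch pathway genes by role (y axis). Of these, 9 were higher and 7 lower in Vav-SB at an adjusted p of at most 0.05.

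With 1 tumour per first title number, since CD4-SB tumours share such numbers, Kat2b, Maml3, Dtx4 and Heyl no longer passed, at differences of 0.58, 0.51, -0.46 and 1.01 (limma adjusted p = 0.0616, 0.129, 0.0647 and 0.0773), and Myc passed at 1.08 (limma adjusted p = 0.0436). The calls of Notch3, Hes1, Dtx1 and Fbxw7 held under every alternative setting tried. The markers of other cell types were lower in Vav-SB tumours, and with their mean level as a covariate 6 pathway genes were higher and 0 lower, and 353 of all genes passed. That ended the calls of Jag1, Notch2, Lfng, Psen2, Dtx4, Nedd4 and Hey1 at differences of -0.06, -0.29, -0.54, -0.28, -0.20, -0.56 and -0.45 and of Heyl, Ptcra and Tcf7 at 1.33, 1.16 and 1.58. The covariate itself differs between the models, at a mean of 7.84 in Vav-SB and 8.61 in CD4-SB tumours, which makes the model difference less precise. Lfng lost its call at almost the difference it had before, -0.55, and Nedd4 and Heyl lost theirs at larger differences. Without the covariate, the median over probe sets also ended the calls of Nedd4, Hey1, Heyl and Tcf7. Probe sets above the median level alone ended those of Lfng and Maml3. Why each call ended was not tested.

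Of 34 markers of macrophages, dendritic cells, B cells, stroma, endothelium and epithelium, 31 were measured. In Vav-SB tumours 1 was higher (3.23%, where 7.28% of all genes were) and 11 were lower (35.5%, where 7.18% were). Their mean level per tumour ran from 7.60 to 8.35 in Vav-SB and from 8.01 to 9.08 in CD4-SB. The array gives no true zero, and the lowest value of any of these genes in a tumour was 4.70. Of 8 T-lineage markers 7 were measured, of which 2 (28.6%) were higher and 0 lower in Vav-SB, and their mean level reached 10.90 ± 0.14 in Vav-SB tumours and 10.41 ± 0.33 in CD4-SB tumours. With the markers of other cell types as a covariate the Notch1 difference was 3.47 instead of 3.18, and 37 of the 39 probe sets were at least 2-fold higher in Vav-SB. CD4-SB replicate 3, the highest CD4-SB tumour in Notch1, had the second highest level of these markers in its model, 8.91, and the highest of the T-lineage markers, 10.75. The part of either in its Notch1 level was not tested. Erg, an ETS transcription factor, was high in Vav-SB tumours on both sides of the gap in Notch1. It was at 9.85 and 10.18 in replicates 4 and 6 and at 7.38 and 6.78 in replicates 3 and 5, and at 9.73, 7.03 and 6.43 in replicates 7, 2 and 1.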

How the data were processed

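The deposited table holds 1 log2 value per probe set and tumour. RMA and Partek made these values, per the submitters' processing notes, which give no versions. RMA in general subtracts background, aligns arrays and summarises probes. For the log base, background step and probe set filter the notes give nothing more, and values from 2.03 to 14.03 were read as log2. Column medians of 7.46 to 7.50 mean that a change in total RNA cannot be seen. Per the labels' protocols, cDNA was amplified from little RNA before labelling, which adds spread and may favour some stretches of a transcript. Correlations between tumours over all probe sets ran from 0.877 to 0.968.

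The strain label gave the groups. Replicate numbers follow accession order. The labels do not say that tumours came from separate animals, so a p-value reflects only how these samples spread, whose number limits the precision. The 7 CD4-SB tumours carry 4 first title numbers and the 7 Vav-SB tumours 7, and the labels do not say what that number means.

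Of the probe sets, 179496 had 1 gene symbol, 1328 several and 13469 none. Symbols were updated through a RefSeq gene table of GRCm38.p6 (2014 replaced), and the mean over probe sets gave 15803 genes. Genes and probe sets were tested with limma 3.58.1 in R 4.3.3 (lmFit, eBayes, Benjamini-Hochberg over the whole table, threshold 0.05), after tests on simulated data. Correlations used all 5040 pairings of 7 tumours (Python 3.11.15). The gene, its lists and the naming rule were chosen with earlier results of these data known. The rule names all listed pathway genes, the 5 most and 5 least alike genes, and the 5 largest and 5 smallest probe set differences. Erg was added with its levels known. Of the listed pathway genes, 10 had no named probe set in the table and were not analysed here.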

Additional observations from a re-analysis of the deposited data

Results flagged for a closer look

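A tumour stood apart from the other 6 of its model, by a gap to the next tumour of more than 0.568 of the model's range (Dixon's limit), in 14 of 172 comparisons, and chance alone gives about 1 in 20. Of these, 6 were among the 80 comparisons of Notch1, all in CD4-SB. The comparisons of Notch1 share the arrays and include the mean of the same probe sets. They are not independent, so no excess over chance is read from these counts. The Notch1 mean level of CD4-SB replicate 3 was 7.98, with the next tumour at 7.58. The same replicate was highest in probe set 5168546 at 8.83 (next 7.60), in 4749725 at 8.58 (next 7.68), in 5044444 at 8.51 (next 7.94) and in 5534440 at 7.31 (next 6.36). In probe set 5118109 CD4-SB replicate 1 was lowest at 5.33 (next 6.51).

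Among pathway genes, CD4-SB replicate 7 was highest in Adam10 at 10.94 (next 9.30) and in Hes5 at 8.28 (next 7.67). CD4-SB replicate 6 was highest in Dtx1 at 7.96 (next 7.57), and CD4-SB replicate 4 in Nrarp at 7.28 (next 6.68). In Vav-SB, replicate 4 was highest in Notch4 at 7.48 (next 7.32), replicate 2 was highest in Tcf7 at 12.00 (next 11.78), replicate 6 was lowest in Dll3 at 6.46 (next 6.59) and replicate 3 was lowest in Snw1 at 10.31 (next 10.48).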

How the results depend on the processing

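The alternatives were quantile normalization, the median in place of the mean of a gene's probe sets, bright probe sets alone, 1 tumour per first title number, that number as a random block, array weights, the level of markers of other cell types as a covariate, and leaving out each tumour in turn. Under those that give each value, the Notch1 difference stayed between 3.08 and 3.47, 37 to 38 of its probe sets were at least 2-fold higher in Vav-SB, and 38 had no overlap. No difference or correlation changed from a call in one direction to a call in the other. With the marker covariate 353 of all genes passed, against 2284 without it, 2209 of all probe sets passed and 0 pathway genes were lower. Leaving out single tumours gave 5 to 8 lower pathway genes. The number of partners correlated with Notch1 in Vav-SB after adjustment was 0 to 3 when a tumour was left out, 3 without Vav-SB replicate 1 and 0 without replicate 3, 4 or 5. Of the 10 genes most or least like Notch1, 2 were named again with the median over probe sets and 3 with bright probe sets. In 4 of 16 called pathway genes the call held in every setting, 12 lost it in at least 1, and 5 others passed in at least 1. The cause of these changes was not tested. Maml3 lost its call without Vav-SB replicate 4 or 6 or CD4-SB replicate 6, Jag1 without Vav-SB replicate 5, Tcf7 without Vav-SB replicate 2 or 5 or CD4-SB replicate 5, and Dtx4 without Vav-SB replicate 1, 4, 5 or 7 or CD4-SB replicate 5 or 6. Nedd4, Hey1, Heyl and Tcf7 lost their calls with the median, and Lfng and Maml3 with bright probe sets alone. The 5 others were Il2ra without Vav-SB replicate 1 (2.66, limma adjusted p = 0.0474), Dll3 with the median (0.42, 0.0237), Aph1b with bright probe sets (-0.30, 0.0333), Aph1c without Vav-SB replicate 4 (-0.32, 0.0397) or CD4-SB replicate 7 (-0.31, 0.0335), with array weights (-0.29, 0.046) and with the random block (-0.28, 0.0363), and Myc with 1 tumour per title number (1.08, 0.0436) or without CD4-SB replicate 7 (0.91, 0.0464). With the marker covariate the Myc difference was -0.16. The array gives no detection call, so values near background have no known floor. No paired analysis was possible because the replicate numbers follow accession order and pair no tumours.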
